A study of Homo sapiens with 4 samples.

Results

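The insulin-like growth factor (IGF) system is described by 10 genes in A549, an established cell line from a human lung adenocarcinoma: the ligand gene IGF2, its neighbour H19, the receptor genes IGF1R and IGF2R, and the binding protein genes IGFBP1, IGFBP2, IGFBP3, IGFBP4, IGFBP6 and IGFBP7. They are 10 of the 26255 gene symbols in the deposited table and were picked by symbol. The choice was made on measured values, because IGF2 was higher in the mix culture, H19 was lower in the acinar tumor and IGFBP7 was higher in both. Every value from these contrasts is therefore a description, with no test.

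The RNA of 4 groups was sequenced, each as a single library. The acinar tumor library and the solid tumor library came from A549 tumors grown in immunodeficient mice, from which tumor cells of gland-forming (acinar-type) or sheet-like (solid-type) histology were cut by laser microdissection. The mix culture library and the single culture library came from GFP-labelled A549 cells sorted out of 3D colonies. The mix culture was read as the one grown with cancer-associated fibroblasts (CAFs), which are stromal cells of tumors, and the single culture as the one grown without them. No treatment or edited allele beyond the GFP label of the sorted cells is named, and the sources used here do not say whether the acinar and solid cells shared a tumor or a mouse. Estimated fragments numbered about 6630000 in the acinar tumor, 7270000 in the solid tumor, 12180000 in the mix culture and 10970000 in the single culture. Levels are scaled counts, the authors' normalised fragment counts after division by 1 constant, with no correction for gene length unless stated. All 9 A549 and epithelial markers were measured in both comparisons, with none past 2-fold in either. Of all genes measured, 4.54% were past 2-fold between the tumors and 2.42% between the cultures. KRT8, an epithelial keratin, was at 4507 in the acinar tumor, 4061 in the solid tumor, 2543 in the mix culture and 2451 scaled counts in the single culture.

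IGF2 is a growth factor related to insulin that signals through the receptor tyrosine kinases IGF1R and INSR. IGF2R, a scavenger and mannose-6-phosphate receptor, takes up IGF2 and delivers it to lysosomes. Secreted IGF-binding proteins hold IGFs outside the cell, prolong their life and limit or focus their access to IGF1R, and proteases such as PAPPA release them. H19 is a long noncoding RNA next to IGF2 on chromosome 11. The pair is imprinted in many normal tissues, IGF2 being expressed from the paternal and H19 from the maternal copy, and binding of CTCF between them keeps shared enhancers from IGF2 on the maternal copy.

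IGF2 was low in the tumors and higher in the cultures. It had 1 fragment in the acinar tumor, 20 in the solid tumor, 278 in the mix culture and 62 in the single culture, which are 0.155, 2.80, 22.4 and 5.51 scaled counts. The mix culture was highest and the acinar tumor, with its single fragment, lowest. IGF2 was 18.0-fold lower in the acinar than in the solid tumor, with a 95% counting interval of 2.89 to 748, and 4.06-fold higher in the mix than in the single culture (3.07 to 5.44). These intervals are exact conditional binomial intervals on fragments, cover counting error only and say nothing of the spread between tumors or cultures. On the scale log2(scaled count + 1), used for calling genes at or past 2-fold, the ratios were -1.72 and 1.84. The tumor value was no longer past 2-fold with a pseudocount of 5, at -0.60.

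H19 was abundant in 1 library. It had 1.55 scaled counts in the acinar tumor, 78.0 in the solid tumor, 6.20 in the mix culture and 8.0 in the single culture. The solid tumor stood above the other libraries and the acinar tumor below both cultures. The ratio of acinar to solid tumor was -4.95 on the log2 scale with a pseudocount of 1, and the plain ratio was 50.3-fold lower. In the cultures H19 was 1.29-fold lower in the mix than in the single culture, with an interval that included no difference (0.941 to 1.77). The deposited H19 value is fractional only in the solid tumor, at 557.73 estimated fragments. The other libraries gave whole fragments, 10 in the acinar tumor, 77 in the mix culture and 90 in the single culture. With the solid value rounded to a whole fragment, the counting interval of the fold (acinar over solid) was 0.00948 to 0.0368. The cause of the fraction was not tested.

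In the acinar tumor both IGF2 and H19 were lower than in the solid tumor, while in the mix culture IGF2 was higher and the H19 interval included no difference from the single culture. Between its lowest and highest library H19 differed 50.3-fold and IGF1R 1.27-fold. No such range is given for IGF2, whose lowest level is 1 fragment.

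The promoter windows that follow show an annotated H19 start beside those of IGFBP3 and IGFBP4, the binding protein genes with the most fragments. The windows are RefSeq sequences in the build GRCh38.p14, from 250 bases before to 50 bases after the annotated start. They are written 5′ to 3′ on the gene's strand, with every CG dinucleotide, the site of DNA methylation, in capitals. H19 lies at chr11:2001217-2001516 on the minus strand, IGFBP3 at chr7:45921223-45921522 on the minus strand and IGFBP4 at chr17:40443200-40443499 on the plus strand.
H19: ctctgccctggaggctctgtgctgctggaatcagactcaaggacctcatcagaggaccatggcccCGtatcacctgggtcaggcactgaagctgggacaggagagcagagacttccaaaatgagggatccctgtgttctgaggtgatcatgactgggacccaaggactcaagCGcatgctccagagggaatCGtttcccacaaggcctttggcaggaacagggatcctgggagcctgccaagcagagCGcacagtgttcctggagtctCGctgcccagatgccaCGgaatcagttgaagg
IGFBP3: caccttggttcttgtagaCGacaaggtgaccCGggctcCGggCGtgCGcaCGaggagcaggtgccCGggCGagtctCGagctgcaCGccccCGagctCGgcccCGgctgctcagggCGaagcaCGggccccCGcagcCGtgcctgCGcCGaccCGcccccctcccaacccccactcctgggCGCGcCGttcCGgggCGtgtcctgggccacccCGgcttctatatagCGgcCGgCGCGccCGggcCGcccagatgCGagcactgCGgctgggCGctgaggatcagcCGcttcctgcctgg
IGFBP4: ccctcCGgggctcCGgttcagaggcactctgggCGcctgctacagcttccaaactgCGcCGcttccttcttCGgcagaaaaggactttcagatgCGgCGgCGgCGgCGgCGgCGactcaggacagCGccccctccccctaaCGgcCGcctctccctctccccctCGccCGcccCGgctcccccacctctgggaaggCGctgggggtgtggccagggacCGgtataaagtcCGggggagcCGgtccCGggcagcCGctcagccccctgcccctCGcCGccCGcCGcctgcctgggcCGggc
The H19 window holds 6 CG dinucleotides, the IGFBP3 window 36 and the IGFBP4 window 30, where the median of 35116 human promoter windows of the same length is 14. Motifs were searched on both strands: TATAAA, found in 11.5% of all windows, TATATA in 3.99%, CCAAT in 34.6% and CACGTG in 7.26%, where TATAAA and TATATA can overlap each other. The IGFBP4 window holds TATAAA, the IGFBP3 window TATATA and the H19 window none of these letters. A match describes the sequence and is no measurement of binding. Of the 10 genes, 7 had a promoter entry. A gene can have several annotated starts. Which H19 start was used in these libraries was not tested, so the H19 statements hold for this window only. No methylation was measured in these samples, and the CG counts say nothing of imprinting.

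The H19 transcript also carries the hairpin of miR-675, whose mature strands are shown because they are the small RNA product of this gene (RefSeq, GRCh38.p14, seed at bases 2 to 8 in capitals).
hsa-miR-675-5p: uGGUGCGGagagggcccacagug
hsa-miR-675-3p: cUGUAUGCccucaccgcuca
The mature strands lie at chr11:1996768-1996822 on the minus strand, downstream of the H19 window shown above. The hairpin gene MIR675 was listed at 0 in all 4 libraries. These were mRNA libraries, which do not measure mature microRNAs.

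**Figure D1:**
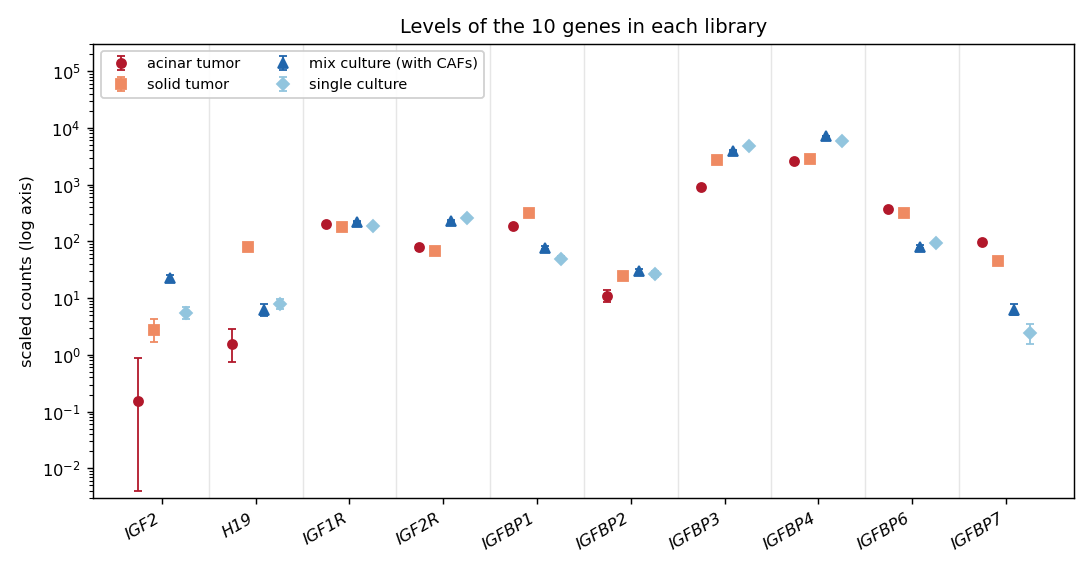
Levels of the 10 genes in scaled counts (log axis) in the acinar tumor, solid tumor, mix culture and single culture, 1 library each, with exact 95% Poisson intervals of the fragments (rounded where fractional) that cover counting error only. IGF2 and H19 spread over more than a log unit, whereas the 4 IGF1R points lie between 175 and 224 scaled counts.

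The receptors that bind IGF2 differed less. IGF1R, the signalling receptor, had 199 scaled counts in the acinar tumor, 175 in the solid tumor, 224 in the mix culture and 184 in the single culture, so that tumors and cultures overlapped. Its ratios were 0.18 for acinar over solid tumor and 0.28 for mix over single culture on the log2 scale. IGF1R fragments were also fractional, in the acinar tumor (1280.92), the mix culture (2777.42) and the single culture (2068.75), and the counting intervals on rounded fragments were 1.05 to 1.22 for the tumor and 1.15 to 1.29 for the culture fold. IGF2R was at 78.5 and 68.8 scaled counts in the acinar and solid tumor, and at 226 and 260.3 scaled counts in the mix and single culture. It was 1.14-fold higher in the acinar than in the solid tumor (1.01 to 1.29) and 1.15-fold lower in the mix than in the single culture (1.10 to 1.22). With libraries rescaled to equal totals the tumor interval, 0.993 to 1.28, included no difference. Both tumors were below both cultures for IGF2R, and the nearest pair of a culture and a tumor differed 2.88-fold. INSR, the insulin receptor gene, which is not among the 10, ran the other way, at 32.7 and 35.8 scaled counts in the acinar and solid tumor and 10.9 and 9.15 scaled counts in the mix and single culture.

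Among the binding proteins, IGFBP3 and IGFBP4 had the highest scaled counts in every library. IGFBP3 is the main IGF carrier of the circulation and IGFBP4 a binding protein that inhibits IGF action until PAPPA cuts it. Together they made up 0.341% of the summed deposited values in the acinar tumor, 0.540% in the solid tumor, 1.13% in the mix culture and 1.10% in the single culture. IGFBP3 had 907 scaled counts in the acinar tumor, 2686 in the solid tumor, 3975 in the mix culture and 4788 in the single culture. The acinar tumor was the lowest of the 4 and the single culture the highest. The acinar tumor was 2.96-fold below the solid tumor (2.88 to 3.05), and the mix culture 1.20-fold below the single culture (1.19 to 1.22). IGFBP4 was at 2597 and 2804 scaled counts in the acinar and solid tumor, 1.08-fold lower in the acinar tumor (1.06 to 1.10), and at 7114 and 5905 scaled counts in the mix and single culture, 1.20-fold higher in the mix culture (1.19 to 1.22). The direction of IGFBP4 thus differed between the settings, while IGFBP3 was lower in the acinar tumor and in the mix culture.

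IGFBP1, a binding protein secreted by liver and regulated by insulin, had 186 scaled counts in the acinar tumor, 319 in the solid tumor, 77.1 in the mix culture and 49.9 in the single culture. It was 1.72-fold lower in the acinar than in the solid tumor (1.60 to 1.84) and 1.55-fold higher in the mix than in the single culture (1.39 to 1.72). IGFBP2 was at 11, 24.5, 29.5 and 26.6 scaled counts, libraries in that order. The acinar tumor stood below the other libraries, whose counting intervals overlapped in a chain, from 21.0 to 28.4 in the solid tumor, 26.5 to 32.6 in the mix culture and 23.6 to 29.8 in the single culture. IGFBP2 was 2.22-fold lower in the acinar than in the solid tumor (1.68 to 2.97), a difference no longer past 2-fold with a pseudocount of 5 (log2 ratio -0.88). The IGFBP2 ratio of mix to single culture had an interval that included no difference (fold 1.11, 0.949 to 1.30).

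IGFBP6, which binds IGF2 in preference to IGF1, was at 370.1 and 318 scaled counts in the acinar and solid tumor and at 80.4 and 93.3 scaled counts in the mix and single culture. Both tumors lay above both cultures, while the differences within a setting were 1.16-fold higher in the acinar tumor (1.10 to 1.23) and 1.16-fold lower in the mix culture (1.06 to 1.27). IGFBP7, a matrix-associated member of the family that binds IGFs only weakly, had 96.2 scaled counts in the acinar tumor, 44.9 in the solid tumor, 6.28 in the mix culture and 2.40 in the single culture. The levels did not overlap between tumors and cultures, and their order was acinar, solid, mix and single. IGFBP7 was 2.14-fold higher in the acinar than in the solid tumor and 2.61-fold higher in the mix than in the single culture (1.67 to 4.22). Its fragments were 620.4 in the acinar tumor, 320.99 in the solid tumor, 77.96 in the mix culture and 27.03 in the single culture. Only the acinar value lay more than 0.05 from a whole number, and with it rounded the interval of the tumor fold was 1.87 to 2.46. The culture ratio of IGFBP7, 1.10 on the log2 scale, was no longer past 2-fold with a pseudocount of 5, at 0.61.

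**Figure D2:**
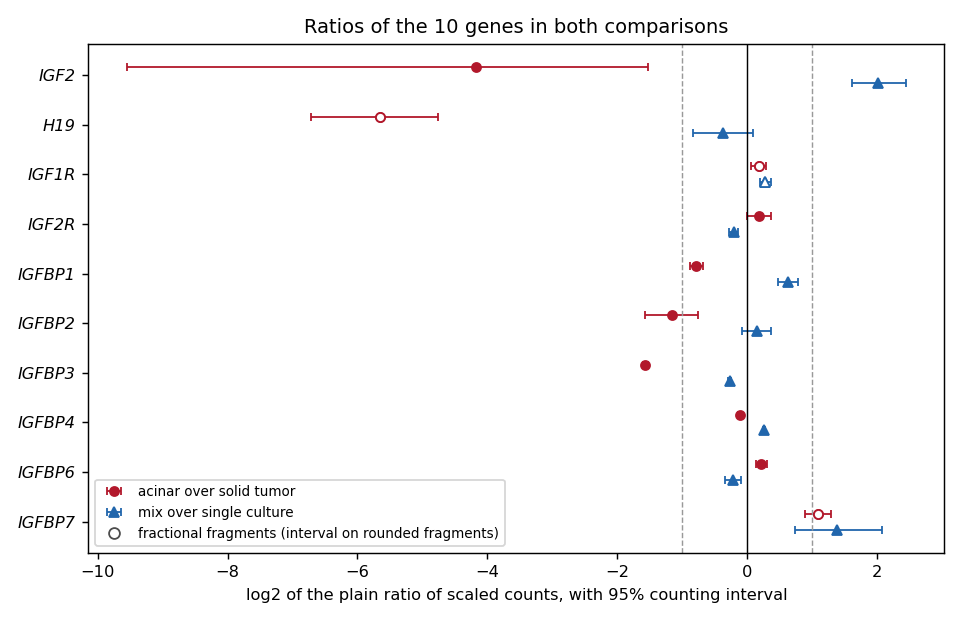
Log2 of the plain ratio of scaled counts for the 10 genes, acinar over solid tumor (circles) and mix over single culture (triangles), with 95% counting intervals and dashed lines at 2-fold. IGF2 lies at 18.0-fold lower in the acinar tumor and 4.06-fold higher in the mix culture, and IGFBP7 lies right of 0 in both comparisons. Open symbols have fractional fragments.

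By count, the acinar tumor was past 2-fold above the solid tumor for 1 of the 10 genes and past 2-fold below it for 4. Of all 13979 genes measured in that pair, 1.98% were called higher and 2.55% lower, or 4.54% in either direction. The higher gene was IGFBP7 and the lower genes were H19, IGF2, IGFBP3 and IGFBP2. In the mix against the single culture, 2 were higher (IGF2 and IGFBP7) and 0 lower, where 0.682% of 13485 genes were called higher and 1.74% lower, or 2.42% in either direction. All 10 genes passed the filter of 1 scaled count in both comparisons. Their median log2 ratio was -0.44 in the tumor pair and 0.21 in the culture pair, against 0.01 for all genes measured in each. Because the genes were chosen on these contrasts, nothing is read from these shares. The 2 comparisons share no library.

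**Figure D3:**
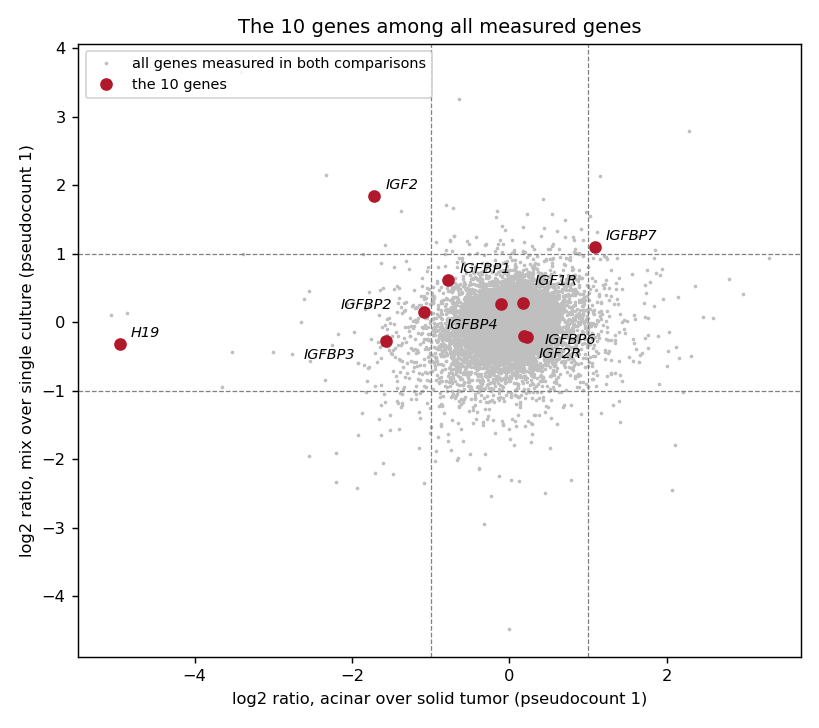
Log2 ratio (pseudocount 1) of acinar over solid tumor on the horizontal axis and of mix over single culture on the vertical axis, for each gene measured in both comparisons (grey) and the 10 genes (red), with dashed lines at 2-fold. IGF2 lies at -1.72 and 1.84, H19 at -4.95 and -0.32, and IGFBP7 at 1.08 and 1.10.

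Across settings, both tumors were past 2-fold above both cultures for 3 of the 10 genes and past 2-fold below them for 2. Of 14561 genes, 9.67% were called higher and 8.22% lower by the same rule, while 39.8% were higher and 38.7% lower in both tumors by any size. The higher genes were IGFBP7, IGFBP6 and IGFBP1, with nearest tumor and culture libraries 7.15-fold, 3.41-fold and 2.41-fold apart. The lower genes were IGF2R at 2.88-fold and IGFBP4 at 2.11-fold. IGF2, IGFBP3 and IGFBP2 were also below both cultures in both tumors, their nearest libraries differing 1.97-fold, 1.48-fold and 1.09-fold. Tumor cells were cut by laser and cultured cells sorted, so setting and isolation method cannot be told apart, nor in bulk RNA can fewer expressing cells and less RNA per cell.

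To compare binding proteins with each other, levels were divided by transcript length in GENCODE release 29 (the longest APPRIS principal transcript, 2262 bases for IGFBP3 and 2200 bases for IGFBP4). In every library the order from the top was IGFBP4, IGFBP3, IGFBP6 and IGFBP1. In scaled counts per kb, IGFBP4 was at 1180 in the acinar tumor, 1274 in the solid tumor, 3234 in the mix culture and 2684 in the single culture. IGFBP3 was at 401, 1187, 1757 and 2117 scaled counts per kb in these libraries. IGFBP3 therefore held 19.2% of the family's summed level per kb in the acinar tumor, 39.8% in the solid tumor, 34.1% in the mix culture and 42.8% in the single culture. The share of IGFBP6 was 15.1% in the acinar tumor, 9.12% in the solid tumor, 1.34% in the mix culture and 1.61% in the single culture. IGFBP7 ranked next after IGFBP1 among the 8 family members in both tumors and last in both cultures, with 3.22% and 1.05% in the acinar and solid tumor and 0.0854% and 0.034% in the mix and single culture. These shares describe RNA of the genes and rest on one transcript per gene, and the order was the same with the median length of each gene's transcripts.

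**Figure D4:**
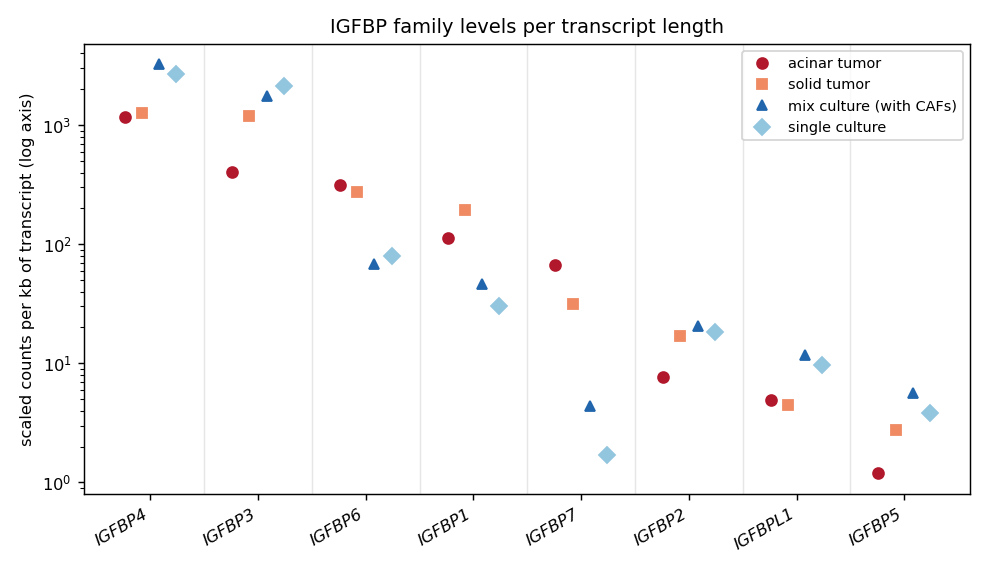
Levels of the 8 IGFBP family genes in scaled counts per kb of transcript (log axis) in the 4 libraries, in the order of their acinar tumor level from IGFBP4 to IGFBP5. IGFBP3 was at 401 in the acinar tumor against 1187 in the solid tumor, and IGFBP7 and IGFBP6 lie higher in both tumors than in both cultures.

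The remaining members of the family, which are not among the 10, were IGFBP5 and IGFBPL1. IGFBP5, a matrix-binding member, was at 7.44 and 17.2 scaled counts in the acinar and solid tumor, 2.31-fold lower in the acinar tumor (1.64 to 3.30). In the mix and single culture it was at 35.0 and 24.0 scaled counts, 1.46-fold higher in the mix culture (1.25 to 1.71). IGFBPL1 was at 5.43 and 4.89 scaled counts in the acinar and solid tumor and 12.8 and 10.5 scaled counts in the mix and single culture. Over all 8 family genes the median log2 ratio was -0.44 for acinar over solid tumor, with 1 past 2-fold higher and 3 lower, where 1.98% and 2.55% of all genes were called. It was 0.27 for mix over single culture, with 1 higher and 0 lower, against 0.682% and 1.74% of all genes. Of the 8, 6 are among the 10 genes chosen on these contrasts, so nothing is read from these counts.

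Of the ligands and receptors, IGF1, the other IGF ligand, had 13 fragments in the acinar tumor and 4 in the solid tumor and was listed at 0 in both cultures. Its plain fold was 3.60 higher in the acinar tumor (1.11 to 15.2), which with the pseudocount of 1 became a log2 ratio of 0.95, short of 2-fold. A count of 0 there allows up to 0.242 scaled counts in the mix and 0.267 in the single culture. INS and INSRR were listed at 0 in all 4 libraries. In this list of 9, IGF2 was the gene past 2-fold in each comparison, of 7 measured in the tumor pair (median 0.15) and 5 in the culture pair (median 0.23). Of all genes, 4.54% and 2.42% were past 2-fold in these pairs. IGF2 is among the 10 genes chosen on these contrasts, so nothing is read from its call. Among 10 IGFBP proteases and their inhibitors, 9 were measured in each pair, with medians of 0.10 and -0.03. PAPPA, the protease that cuts IGFBP4, was at 51.4 and 54.0 scaled counts in the acinar and solid tumor and 512 and 521 scaled counts in the mix and single culture, with fractional fragments. STC2, a stanniocalcin that blocks PAPPA, was the gene past 2-fold, at 1.71 scaled counts in the acinar tumor against 9.65 in the solid tumor (5.66-fold lower, 2.97 to 11.9). In the cultures STC2 was at 97.2 scaled counts in the mix and 108 in the single culture. STC1, the related PAPPA inhibitor, was at 125 and 111 scaled counts in the acinar and solid tumor and 306 and 309 scaled counts in the mix and single culture.

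Downstream of the receptors, 22 of 23 insulin and IGF signal transduction genes were measured in each pair and 0 were past 2-fold in either direction. Of all genes measured, 4.54% were past 2-fold in the tumor pair and 2.42% in the culture pair. With shares this small, nothing is read from a count of 0 in a list of this size. The log2 ratios of the 22 genes ran from -0.45 to 0.82 in the tumor pair (median -0.07). In the culture pair they ran from -0.56 to 0.48 (median -0.06). FOXO1, a transcription factor restrained by AKT, had the highest of these tumor ratios, at 32.7 scaled counts in the acinar and 18.0 in the solid tumor. IRS1, the adaptor of both receptors, was at 41.7 and 46.6 scaled counts in the acinar and solid tumor and 213 and 216 scaled counts in the mix and single culture. Of 7 genes for IGF2 mRNA-binding proteins and the LIN28 axis, 5 were measured in the tumor pair and 6 in the culture pair. Their medians were 0.26 and -0.01, and 0 were past 2-fold, against the same shares of all genes. IGF2BP1, which binds IGF2 transcripts, was at 84.3 and 80.1 scaled counts in the acinar and solid tumor and 138 and 151 scaled counts in the mix and single culture.

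Of 21 listed genes around H19 and IGF2 on chromosome 11, 12 were measured in the tumor pair, with 2 past 2-fold higher and 0 lower (median -0.01), where 1.98% of all genes were called higher and 2.55% lower. In the culture pair 10 were measured, with 0 past 2-fold at the pseudocount of 1 (median -0.08), where 2.42% of all genes were past 2-fold. MRPL23-AS1, antisense to MRPL23, had 2 fragments in the mix and 12 in the single culture, a plain fold 6.62 lower in the mix culture (1.47 to 60.9) and a log2 ratio of -0.83. CDKN1C, an imprinted cell cycle inhibitor gene, was at 58.3 scaled counts in the acinar against 27.5 in the solid tumor (2.12-fold higher, 1.78 to 2.53), and at 2.58 in the mix against 4.98 in the single culture. KCNQ1, a potassium channel gene, had 18 fragments in the acinar and 3 in the solid tumor (6.65-fold higher, 1.94 to 35.3). MRPL23, a mitochondrial ribosomal protein gene beside H19, was at 130 and 140 scaled counts in the acinar and solid tumor. Of 22 imprinted genes 11 and 13 were measured, with medians of -0.04 and -0.06. CDKN1C was the gene past 2-fold in the tumor pair and 0 were in the culture pair at the pseudocount of 1. The shares of all genes past 2-fold were 4.54% and 2.42%. The imprinted gene NNAT had 6 fragments in the mix culture and a fractional 16.68 in the single culture. As a plain fold it was 3.07-fold lower in the mix culture (1.18 to 9.69 on rounded fragments), with a log2 ratio of -0.74. The cause of the fraction was not tested. The imprinted noncoding RNA MEG3 was at 5.74 and 9.65 scaled counts in the acinar and solid tumor and 6.60 and 6.49 scaled counts in the mix and single culture. Genes of imprinting control had 5 of 7 measured in each pair and 0 past 2-fold (medians -0.15 and 0.20), against 4.54% and 2.42% of all genes. Among them, CTCF was at 54.4 and 52.9 scaled counts in the acinar and solid tumor and 94.8 and 91.0 in the mix and single culture.

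Genes with profiles most like those of 3 members were ranked by Euclidean distance between mean-centred log2(scaled count + 1) values over the 4 libraries. Candidates were 12003 other genes, each at 5 scaled counts or more in some library and above 0 in all 4. Genes listed at 0 in any library were thus not ranked. For IGF2 the nearest genes were FOS (distance 0.780), GLI1 (0.905) and RHOV (1.05). For H19 they were CHGB (1.02), SNCG (1.40) and H3F3A (1.66), the last with fractional values near 0 in 3 libraries (0.00203 in the acinar tumor). For IGFBP7 they were LBH (0.354), FSTL3 (0.516) and UNC13D (0.516). With 4 points per gene the distances are a description only.

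IGF2, IGFBP7 and several other members are also expressed by fibroblasts, so fibroblast markers are given beside them. Of 16 markers, 9 were measured in the tumor pair, with 4 past 2-fold higher (COL5A1, LUM, FAP and MFAP5), 0 lower and a median log2 ratio of 0.87, where 1.98% of all genes were called higher and 2.55% lower. Their summed level was 788 scaled counts in the acinar and 334 in the solid tumor, of which MFAP5 held 563 and 225. COL6A3, POSTN, PDGFRA and THY1 were listed at 0 in both tumors. In the cultures, 7 were measured with 0 past 2-fold (median 0.01), where 2.42% of all genes were past 2-fold. In the mix culture 4 were higher (COL5A1, COL1A1, THY1 and COL6A1) and 3 lower (ACTA2, FBN1 and PDGFRA). COL1A1 was at 29.5 scaled counts in the mix and 19.3 in the single culture, and FBN1 at 54.1 and 81.3. The summed level was 456 scaled counts in the mix and 371 in the single culture, of which COL5A1 held 285 and 176. DCN, POSTN, FAP and MFAP5 were listed at 0 in both cultures, and COL1A2 had 2 fragments in the mix and 0 in the single culture. The part of fibroblast RNA in the IGF2 and IGFBP7 differences was not tested. Of 8 endothelial markers 0 were measured in the tumor pair and 1 in the culture pair, with summed levels of 2.17 and 2.38 scaled counts in the acinar and solid tumor and 1.45 and 1.96 in the mix and single culture. EMCN and CLDN5 were listed at 0 in both tumors and CDH5 and VWF in both cultures. Leukocyte markers had 5 of 8 measured in the tumor pair, with CD14 and LYZ past 2-fold lower against 2.55% of all genes (summed level 146 scaled counts in the acinar and 239 in the solid tumor), and 3 of 8 in the culture pair with 0 past 2-fold (44.0 in the mix and 49.9 in the single culture). The xenograft hosts were mice, and the share of mouse fragments counted under human symbols was not tested.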

How the data were processed

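RNA-seq of 4 A549 libraries, 1 per group, was taken from the table of 26255 gene symbols the authors deposited. Its signal values, per the file headers a raw signal, behave as fragment counts divided by 1 size factor per library: with a tolerance of 0.05 fragments, 90.0% to 91.2% of nonzero values were multiples of 1 step per library (1.39 in the acinar tumor, 1.25 in the solid tumor, 0.720 in the mix culture and 0.795 in the single culture). Named in the submitters' processing notes are Cuffdiff 2.2.1, SAMtools 1.0, TopHat2 2.0.13, Bowtie2 2.2.3 and hg19. The sources used here give no strand setting, filters or annotation, so overlapping, antisense and near-identical genes are uncertain.

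Here all values were divided by 8.94, a constant set from the mean library total, to give scaled counts. Ratios were log2 of values plus 1, over genes at 1 or more in either library of a pair, and calls were ratios at or past 2-fold. Tumors against cultures used the nearest pair of libraries, over genes at 1 or more in any library. Counting intervals are 95% exact conditional binomial (Clopper-Pearson), or exact Poisson for levels (Python 3.11.15, SciPy 1.17.1). Without molecular identifiers, fragments are not independent molecules. A limit for 0 is 3 fragments. With 1 library per group there is no test and no count model. The steps were run on simulated Poisson fragments, which the counting intervals assume, with 200 genes changed 4-fold. No changed gene was as low as IGF2 in the tumors and no value was fractional, so those cases were not covered. Named genes are the 10 members, up to 4 members per list past 2-fold and the 3 nearest profiles of IGF2, H19 and IGFBP7. INSR, PAPPA, STC1, FOXO1, IRS1, IGF1, IGFBPL1, IGF2BP1, MRPL23, MRPL23-AS1, NNAT, MEG3, CTCF, KRT8, COL1A1, COL1A2, COL6A1, FBN1, ACTA2, THY1 and PDGFRA, and list members named because they are listed at 0, were added after their values were seen. Members and lists were chosen with earlier results of these data known.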

Additional observations from a re-analysis of the deposited data

Results flagged for a closer look

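Some of the 10 genes differed in opposite directions in the 2 settings, with both counting intervals excluding no difference; the difference between the settings was not tested, and each direction rests on 1 library per group. Log2 of the acinar over solid fold minus log2 of the mix over single fold was -6.20 for IGF2, -1.41 for IGFBP1 and -0.38 for IGFBP4, which were lower in the acinar tumor and higher in the mix culture. The same quantity was 0.40 for IGF2R and 0.44 for IGFBP6, which were higher in the acinar tumor and lower in the mix culture. For IGF2R the tumor interval reached 0.993 with libraries rescaled to equal totals and then included no difference. The IGF2 value rests on 1 fragment in the acinar tumor.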

How the results depend on the processing

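None of the 10 genes changed direction under the alternatives run, and equal library totals or a median of ratios moved no count of calls by over 1.5 times. With a pseudocount of 0.1, all genes past 2-fold numbered 478 higher and 692 lower in the acinar against the solid tumor and 192 higher and 522 lower in the mix against the single culture. With a pseudocount of 5 the counts were 114 and 101 in the tumor pair and 33 and 73 in the culture pair, and 864 higher and 774 lower for tumors against cultures. Of the 10 genes, 2 were then still called lower in the acinar tumor and 1 higher in the mix culture. A filter of 5 scaled counts left 203 genes lower in the acinar tumor and removed IGF2 from that pair, where it lay under the filter. With only whole fragments, 0 of the 10 genes were called higher in the acinar tumor, because IGFBP7 was left out by construction. Rounding fractional fragments down or up and the other transcript length were chosen after seeing the data. No paired analysis was possible because each group has 1 library, and for the same reason no library could be left out. Depth limits IGF2 and H19 in the acinar tumor, with 1 and 10 fragments.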
